A study of Mus musculus with 8 samples.

Results

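The muscle precursor regulators are 8 genes, *Pax7*, *Myf5*, *Myod1*, *Myog*, *Msc*, *Vgll2*, *Cdh15* and *Chrna1*, of 15880 measured in 4 cell populations sorted from newborn mouse bones. They were selected on their measured values in these libraries as genes of the muscle lineage that were high in GFP+ Pdgfrα- cells. That contrast is therefore given as a description, with no test. *Pax7* encodes a paired-box factor of muscle stem cells. *Myf5*, *Myod1* and *Myog* encode basic helix-loop-helix (bHLH) myogenic factors, and *Msc* a bHLH repressor. *Vgll2* encodes a cofactor of TEAD transcription factors. *Cdh15* (M-cadherin) and *Chrna1* (the α subunit of the muscle acetylcholine receptor) encode proteins of the cell surface.

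The study profiled RNA of C57BL/6 pups at postnatal day 1 that were heterozygous for Nes-Gfp. Bone cells without CD45, CD31 and Ter119 were sorted by GFP and Pdgfrα into GFP+ Pdgfrα-, GFP+ Pdgfrα+, GFP- Pdgfrα+ and GFP- Pdgfrα- cells, with 2 libraries each, 8 in all. GFP was driven by regulatory elements of the rat nestin gene, so it marks activity of that transgene. Bones of 3 pups were pooled for a library, which was made from amplified cDNA of 15000 to 80000 cells. All groups shared genotype, strain and age, had no treatment, and differed in the sort gate alone. As checks of the sort, mean *Pdgfra* was 744 in GFP+ Pdgfrα+ and 14.2 in GFP+ Pdgfrα- cells, and mean *Nes* was 162 in GFP+ Pdgfrα- and 6.33 in GFP- Pdgfrα- cells.

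Skeletal muscle forms from committed precursors that express Pax7 and then bHLH factors in sequence. Myf5 and MyoD commit cells to the lineage, and myogenin drives exit from the cell cycle, fusion and expression of contractile proteins. A share of Pax7-expressing precursors remains beside the fibres as satellite cells, which repair muscle after birth.

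The deposited values are normalized: reads plus 0.5, divided by the effective library size and scaled by 1000000. Reads were recovered from these values and cover only the 15880 genes kept, so their totals are not the sequencing depth. These totals were 3644103 and 3427644 in GFP+ Pdgfrα-, 3564158 and 3329432 in GFP+ Pdgfrα+, 3869275 and 3221217 in GFP- Pdgfrα+, and 4058258 and 5302762 in GFP- Pdgfrα- libraries. A gene was called at the floor in a group when each of its libraries held at most 3 reads, a value of 0.825 to 1.04 depending on the library. Folds between populations for the 8 genes are ratios of pooled reads per effective size, with exact (Clopper-Pearson) 95% intervals. These intervals and the floor cover counting error only. The 8 genes were selected on their values in these libraries, so the intervals do not test a difference between populations. Errors after ± are standard deviations over the 2 libraries of a population (SD, n = 2).

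All 8 genes had both GFP+ Pdgfrα- libraries above the other 6 libraries, an order that 11.0% of all genes had and that the selection of the 8 fixed. Their 16 values lay between 54.2 and 335.6 in GFP+ Pdgfrα- cells and between 0.719 and 14.5 in GFP+ Pdgfrα+ cells. Across GFP- Pdgfrα+ cells they lay between 0.126 and 2.65, with 13 of 16 values from at most 3 reads. For GFP- Pdgfrα- cells the range was 0.118 to 3.88, with 9 of 16 values from at most 3 reads. Together the 8 genes took 3768 and 3684 reads in the GFP+ Pdgfrα- libraries, 116 and 120 in GFP+ Pdgfrα+, 20 and 18 in GFP- Pdgfrα+, and 41 and 25 in GFP- Pdgfrα-. The signal was thus concentrated in 1 population, with a small amount in GFP+ Pdgfrα+ cells and reads near the floor in the GFP- populations. These are bulk samples, in which fewer cells of a type and less RNA per cell cannot be told apart. All 8 genes passed a filter for a value above 2 in at least 2 libraries, and 7 did so without the GFP+ Pdgfrα- libraries.

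**Figure D1:**
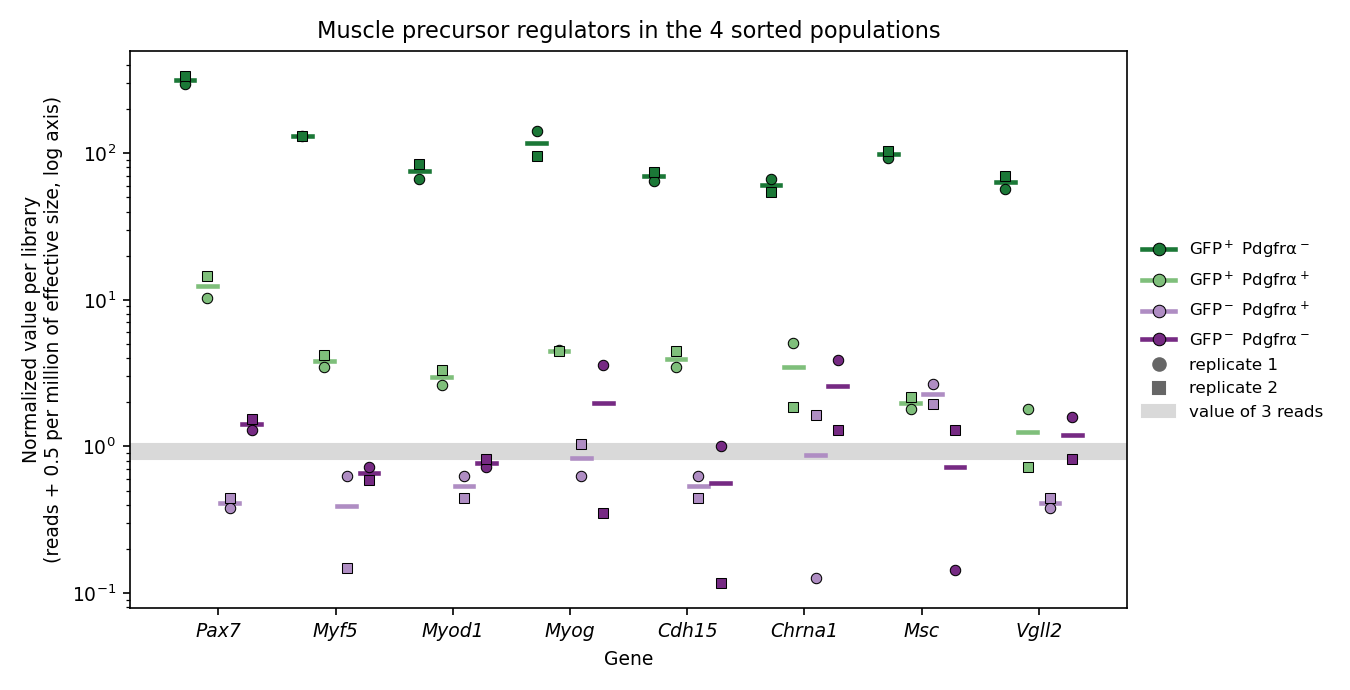
Normalized value of each gene in each library on a log axis, with circles for replicate 1, squares for replicate 2 and lines for the mean of a population. The GFP+ Pdgfrα- libraries lie between 54.2 and 335.6, above every library of the other populations, and the grey band marks the value of 3 reads.

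*Pax7* (ENSMUSG00000028736; chromosome 4, 139292977 to 139389445, minus strand) has 9 merged exons and was the most abundant of the 8 by value. In replicates 1 and 2 its values were 296.3 and 335.6 in GFP+ Pdgfrα-, 10.4 and 14.5 in GFP+ Pdgfrα+, 0.378 and 0.446 in GFP- Pdgfrα+, and 1.29 and 1.53 in GFP- Pdgfrα- libraries. Both libraries of each population lay apart from those of every other, in the order GFP+ Pdgfrα-, GFP+ Pdgfrα+, GFP- Pdgfrα-, GFP- Pdgfrα+. The means were 316 ± 27.8 in GFP+ Pdgfrα- and 12.4 ± 2.94 in GFP+ Pdgfrα+ cells. Pooled over the replicates, 2524 *Pax7* reads in GFP+ Pdgfrα- cells stood against 87 in GFP+ Pdgfrα+ cells, a 25.7-fold difference (95% interval 20.8 to 32.2). Its fold over GFP- Pdgfrα- cells, with 4 and 6 reads, was 243.5 (95% interval 132.2 to 508.3). Each GFP- Pdgfrα+ library held 1 *Pax7* read, so the ratio of 1156 there had a 95% interval of 319.7 to 9551. Only the GFP- Pdgfrα+ libraries were thus at the floor for *Pax7*.

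*Myf5* (ENSMUSG00000000435; chromosome 10, 106919964 to 106923190, minus strand, 3 exons) encodes the first myogenic bHLH factor to appear in the embryo. Its values were 131.0 and 131.1 in GFP+ Pdgfrα-, 3.45 and 4.17 in GFP+ Pdgfrα+, 0.630 and 0.149 in GFP- Pdgfrα+, and 0.718 and 0.590 in GFP- Pdgfrα- libraries. The GFP+ Pdgfrα+ libraries were above all GFP- libraries, while the GFP- Pdgfrα+ and GFP- Pdgfrα- libraries overlapped and were at the floor. With 1048 reads in GFP+ Pdgfrα- and 26 in GFP+ Pdgfrα+ cells, the fold was 35.7 (95% interval 24.3 to 55.0). *Myf5* reads were 2 and 0 in GFP- Pdgfrα+ cells, a ratio of 480.0 (95% interval 132.5 to 3969) that was 259.6 by replicate 1 alone. They were 2 and 2 in GFP- Pdgfrα- cells, a ratio of 252.7 (95% interval 98.4 to 929.3). The 2 GFP+ Pdgfrα- pools were closest to each other for this gene, at 131 ± 0.0584.

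*Myod1* (ENSMUSG00000009471; chromosome 7, 53631844 to 53634462, plus strand, 3 exons) encodes MyoD, which can turn fibroblasts into muscle cells. Its values were 66.7 and 84.8 in GFP+ Pdgfrα-, 2.62 and 3.31 in GFP+ Pdgfrα+, 0.630 and 0.446 in GFP- Pdgfrα+, and 0.718 and 0.825 in GFP- Pdgfrα- libraries. No neighbours overlapped in the order GFP+ Pdgfrα-, GFP+ Pdgfrα+, GFP- Pdgfrα-, GFP- Pdgfrα+, but both GFP- populations were at the floor. The *Myod1* mean was 75.7 ± 12.8 in GFP+ Pdgfrα- and 2.97 ± 0.482 in GFP+ Pdgfrα+ cells. By pooled reads, 603 against 20, this was 26.7-fold (95% interval 17.2 to 44.1). The ratio of *Myod1* was 184.1 (95% interval 62.7 to 895.3) over GFP- Pdgfrα+ cells, which held 2 and 1 reads. The GFP- Pdgfrα- cells, with 2 and 3 reads, gave 116.3 (95% interval 49.6 to 359.6).

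*Myog* (ENSMUSG00000026459; chromosome 1, 136186581 to 136189124, plus strand, 3 exons) encodes myogenin, the bHLH factor of differentiating myoblasts. Its values were 140.9 and 95.3 in GFP+ Pdgfrα-, 4.56 and 4.46 in GFP+ Pdgfrα+, 0.630 and 1.04 in GFP- Pdgfrα+, and 3.59 and 0.354 in GFP- Pdgfrα- libraries. The GFP+ Pdgfrα- pools differed most for this gene, and the GFP- Pdgfrα- libraries, with 12 and 1 reads, lay on both sides of the GFP- Pdgfrα+ libraries. The *Myog* mean was 118 ± 32.3 in GFP+ Pdgfrα- and 4.51 ± 0.0717 in GFP+ Pdgfrα+ cells. That was 950 reads against 31, a 27.2-fold difference (95% interval 19.0 to 40.2). *Myog* was 70.5-fold higher than in GFP- Pdgfrα- cells (95% interval 41.0 to 132.9). This fold was 34.4 over replicate 1 alone and 503.2 over replicate 2 alone, and the gap between the pools was not tested. The GFP- Pdgfrα+ libraries, at the floor with 2 and 3 reads, gave a ratio of 174.0 (95% interval 74.3 to 537.2).

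*Msc* (ENSMUSG00000025930; chromosome 1, 14743427 to 14746047, minus strand, 2 exons) encodes musculin, also called MyoR, a bHLH protein that can repress targets of the myogenic factors. Its values were 92.9 and 103.5 in GFP+ Pdgfrα-, 1.80 and 2.16 in GFP+ Pdgfrα+, 2.65 and 1.93 in GFP- Pdgfrα+, and 0.144 and 1.30 in GFP- Pdgfrα- libraries. *Msc* was the only 1 of the 8 whose second-highest mean was in GFP- Pdgfrα+ cells, although the GFP- Pdgfrα+ and GFP+ Pdgfrα+ libraries overlapped. The mean in GFP+ Pdgfrα- cells was 98.2 ± 7.55. With 784 reads against 13 in GFP+ Pdgfrα+ cells, *Msc* was 53.5-fold higher (95% interval 31.1 to 100.9). The GFP- Pdgfrα+ cells, with 10 and 6 reads, gave a fold of 44.9 (95% interval 27.5 to 78.9). Reads of 0 and 5 in GFP- Pdgfrα- cells gave a ratio of 151.2 (95% interval 64.5 to 467.1), which was 83.1 over replicate 2 alone. *Msc* overlaps *Gm9947* on the opposite strand, whose means were 5.15, 2.42, 0.560 and 0.274 in GFP+ Pdgfrα-, GFP+ Pdgfrα+, GFP- Pdgfrα+ and GFP- Pdgfrα- cells, and the protocol does not state a strand-marking library.

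*Vgll2* (ENSMUSG00000049641; chromosome 10, 51742308 to 51748277, plus strand, 3 exons) encodes vestigial-like 2, a cofactor of TEAD factors that is expressed in skeletal muscle. Its values were 56.7 and 69.6 in GFP+ Pdgfrα-, 1.80 and 0.719 in GFP+ Pdgfrα+, 0.378 and 0.446 in GFP- Pdgfrα+, and 1.58 and 0.825 in GFP- Pdgfrα- libraries. Outside GFP+ Pdgfrα- cells *Vgll2* was low in every library, the GFP+ Pdgfrα+ and GFP- Pdgfrα- libraries overlapped, and the GFP- Pdgfrα+ libraries were lowest. The mean in GFP+ Pdgfrα- cells was 63.1 ± 9.12. By 503 reads against 8, *Vgll2* was 55.8-fold higher than in GFP+ Pdgfrα+ cells (95% interval 28.1 to 129.9), and 109.3-fold without GFP+ Pdgfrα+ replicate 1. The GFP- Pdgfrα- cells also held 8 reads, a 60.7-fold difference (95% interval 30.5 to 141.3). For GFP- Pdgfrα+ cells, with 1 read in each library, the ratio was 230.4 (95% interval 63.4 to 1907).

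*Cdh15* (ENSMUSG00000031962; chromosome 8, 125371866 to 125391297, plus strand, 14 exons) encodes M-cadherin, an adhesion protein between satellite cells and fibres. Its values were 64.95 and 74.7 in GFP+ Pdgfrα-, 3.45 and 4.46 in GFP+ Pdgfrα+, 0.630 and 0.446 in GFP- Pdgfrα+, and 1.01 and 0.118 in GFP- Pdgfrα- libraries. The GFP+ Pdgfrα+ libraries were above every GFP- library, and the GFP- libraries overlapped at the floor. The *Cdh15* mean was 69.8 ± 6.92 in GFP+ Pdgfrα- and 3.95 ± 0.710 in GFP+ Pdgfrα+ cells. Pooled reads of 557 and 27 made this 18.3-fold (95% interval 12.4 to 28.0). The GFP- Pdgfrα+ and GFP- Pdgfrα- cells held 3 *Cdh15* reads each, for ratios of 170.1 (95% interval 57.9 to 827.2) and 179.1 (95% interval 60.97 to 871.1). All 3 GFP- Pdgfrα- reads were in replicate 1, over which alone the ratio was 80.7. *Cdh15* lies within the annotated *Gm20388* on the same strand, which is not among the measured genes.

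*Chrna1* (ENSMUSG00000027107; chromosome 2, 73401272 to 73418395, minus strand, 9 exons) encodes the subunit that carries the acetylcholine binding site of the muscle receptor. Its values were 66.4 and 54.2 in GFP+ Pdgfrα-, 5.11 and 1.87 in GFP+ Pdgfrα+, 0.126 and 1.63 in GFP- Pdgfrα+, and 3.88 and 1.30 in GFP- Pdgfrα- libraries. Only the GFP+ Pdgfrα- libraries stood apart, since the GFP+ Pdgfrα+ libraries overlapped those of GFP- Pdgfrα- cells, and these overlapped those of GFP- Pdgfrα+ cells. The *Chrna1* mean was 60.3 ± 8.66 in GFP+ Pdgfrα- and 3.49 ± 2.29 in GFP+ Pdgfrα+ cells. Every population held at least 1 library with more than 3 *Chrna1* reads. With 483 reads against 24 in GFP+ Pdgfrα+ cells, *Chrna1* was 17.85-fold higher (95% interval 11.9 to 28.1), and 35.0-fold without GFP+ Pdgfrα+ replicate 1. Over GFP- Pdgfrα- cells, with 13 and 5 reads, it was 25.9-fold higher (95% interval 16.2 to 44.05). This fold was 16.2 over replicate 1 alone and 51.2 over replicate 2 alone, and the gap between the pools was not tested. The GFP- Pdgfrα+ reads of 0 and 5 gave a ratio of 88.5 (95% interval 37.7 to 273.8), which was 40.6 over replicate 2 alone.

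Levels of different genes were compared per kb of merged exons. On this scale *Myog* was highest in GFP+ Pdgfrα- cells, with 79.9 ± 21.8 per kb. *Myf5* followed at 62.9 ± 0.0280, *Msc* at 57.2 ± 4.40 and *Pax7* at 53.9 ± 4.74 per kb. The ranges of *Myog* and *Myf5* did not overlap, while those of *Msc* and *Pax7* did. *Myod1* had 40.8 ± 6.91 and *Vgll2* 38.3 ± 5.53 per kb, with overlapping libraries. The surface proteins were lowest, *Cdh15* at 21.5 ± 2.13 and *Chrna1* at 13.7 ± 1.98 per kb. The highest and lowest level per kb differed 5.81-fold. Each gene's fold between GFP+ Pdgfrα- and GFP+ Pdgfrα+ cells was larger, on values that the selection of the 8 used. By value without division by length, the 8 genes ranked between the 83.3 and 98.2 percentiles of all genes in GFP+ Pdgfrα- cells.

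**Figure D2:**
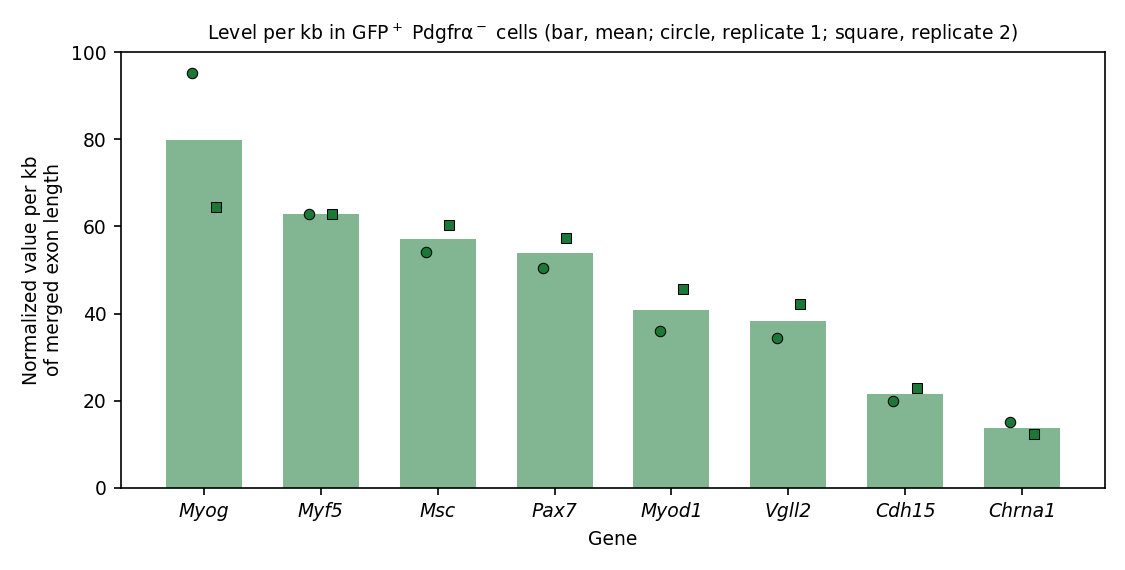
Level in GFP+ Pdgfrα- cells as normalized value per kb of merged exons, with bars for the mean, circles for replicate 1 and squares for replicate 2. *Myog* is highest at 79.9 per kb and *Chrna1* lowest at 13.7.

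The GFP+ Pdgfrα+ cells held a small but repeated part of this signal. Summed over the 8 genes, the value was 915.8 in GFP+ Pdgfrα- replicate 1 and 948.8 in replicate 2. The GFP+ Pdgfrα+ sums, 33.1 and 35.7, were 3.62% and 3.76% of these. For single genes the GFP+ Pdgfrα+ mean was between 1.99% of the GFP+ Pdgfrα- mean (*Vgll2*) and 5.79% (*Chrna1*). *Pax7*, *Myod1* and *Myog* stood close together, at 3.94%, 3.92% and 3.82%. *Chrna1* had 7.69% in replicate 1 and 3.45% in replicate 2, and *Vgll2* had 3.17% and 1.03%. Between the Pdgfrα+ populations, 7 of the 8 genes had both GFP+ Pdgfrα+ libraries above both GFP- Pdgfrα+ libraries, as did 23.4% of all genes, and *Msc* overlapped. Median log2 difference of the 8 genes in that comparison was 1.48, and 2.35 with a pseudocount of 0.1, against 0.00 over all genes in both cases. The sums in the GFP- populations were 6.05 and 6.53 in GFP- Pdgfrα+ cells and 12.9 and 6.84 in GFP- Pdgfrα- cells.

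The 8 genes were low in both GFP- populations. *Pax7*, *Myod1* and *Vgll2* had both GFP- Pdgfrα+ libraries below both GFP- Pdgfrα- libraries, 3 of 8 genes against 35.4% of all genes. Of these, only *Pax7* was above the floor in both GFP- Pdgfrα- libraries. *Msc* alone had both GFP- Pdgfrα+ libraries above both GFP- Pdgfrα- libraries, as did 44.8% of all genes. Over GFP- Pdgfrα- cells the median log2 difference of the 8 genes was -0.36 in GFP- Pdgfrα+ cells, against 0.17 over all genes, and 5.56 in GFP+ Pdgfrα- cells, against 0.15. The same median was -4.49 from GFP+ Pdgfrα- to GFP+ Pdgfrα+ cells, against -0.02 over all genes. The -0.36 became -0.98 with quantile normalization and -0.81 with median centring, where the median over all genes became -0.15 and -0.28. With a pseudocount of 0.1 the -0.36 became -0.66. It lay between -0.23 without GFP- Pdgfrα- replicate 1 and -0.54 without GFP- Pdgfrα- replicate 2. These comparisons share libraries and are not independent of each other.

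Other genes of the lineage were taken from 6 lists that hold none of the 8. The lists were chosen with earlier results of these data known, so their counts describe them and are not independent support. Each gene was tested in limma across all 15880 genes, with an adjusted p-value threshold of 0.05. These p-values measure the spread between pools of pups, and an exact permutation test of 2 against 2 libraries cannot go below 0.333. Over GFP- Pdgfrα- cells, 99 of the 113 listed genes in the table were higher in GFP+ Pdgfrα- cells and 2 lower, where 30.1% and 23.6% of all genes were. In GFP+ Pdgfrα+ over GFP+ Pdgfrα- cells, 13 were higher and 66 lower, against 13.1% and 11.1% of all genes. Between GFP+ Pdgfrα+ and GFP- Pdgfrα+ cells, 14 were higher in the former and 8 lower, against 3.22% and 2.13%. In GFP- Pdgfrα+ over GFP- Pdgfrα- cells, 62 were higher and 8 lower, against 32.9% and 26.8%. On recovered reads these counts were 60 and 5 with voom and 62 and 10 with edgeR. The higher count in GFP+ Pdgfrα+ over GFP- Pdgfrα+ cells fell to 8 without GFP- Pdgfrα+ replicate 1, 7 without GFP- Pdgfrα+ replicate 2 and 8 without GFP+ Pdgfrα+ replicate 1. The lower count there was 2 and 5 without GFP- Pdgfrα+ replicates 1 and 2, and 5 without GFP+ Pdgfrα+ replicate 1. With median centring the GFP- Pdgfrα+ over GFP- Pdgfrα- counts were 51 higher and 13 lower, and with quantile normalization 52 and 16, while the lower count was 5 without GFP- Pdgfrα- replicate 1 or GFP- Pdgfrα+ replicate 1.

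Premyogenic factors act before or beside Pax7 and the bHLH factors when muscle is specified. Of the 15 in the table, 14 were higher in GFP+ Pdgfrα- over GFP- Pdgfrα- cells and 0 lower, with a median log2 difference of 3.68. From GFP+ Pdgfrα- to GFP+ Pdgfrα+ cells, 10 fell and 2 rose, with a median of -1.85. *Pax3*, the paralogue of *Pax7* in migrating limb precursors, had means of 15.1 in GFP+ Pdgfrα- and 0.998 in GFP+ Pdgfrα+ cells and 0 reads in the GFP- populations. It was at least 16.5-fold higher in GFP+ Pdgfrα- cells than GFP- Pdgfrα- cells (log2 difference 3.83, adjusted p = 6.03e-06, limma). *Met*, the receptor that guides migrating precursors, was 81.8 in GFP+ Pdgfrα- and 1.29 in GFP- Pdgfrα- cells (log2 difference 5.17, adjusted p = 3.75e-07, limma). *Eya4*, a transcription cofactor, was 96.5 in GFP+ Pdgfrα- and 12.8 in GFP+ Pdgfrα+ cells (log2 difference -2.88, adjusted p = 1.85e-05, limma). *Lbx1*, another gene of migrating precursors, was 3.497 in GFP+ Pdgfrα- cells, with the other populations at the floor. *Meox1* and *Meox2*, homeobox genes of the somite, were the 2 that rose from GFP+ Pdgfrα- to GFP+ Pdgfrα+ cells. The *Meox1* means were 1.75 in GFP+ Pdgfrα-, 33.5 in GFP+ Pdgfrα+ and 101.3 in GFP- Pdgfrα+ cells. Relative to GFP- Pdgfrα+ cells, 2 of these genes were lower in GFP+ Pdgfrα+ cells, and 0 were without either GFP- Pdgfrα+ library or GFP+ Pdgfrα+ replicate 1.

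Partners and inhibitors of the myogenic factors bind or modulate the bHLH proteins. Of 19 in the table, 14 were higher and 1 lower in GFP+ Pdgfrα- over GFP- Pdgfrα- cells (median log2 difference 1.72), and 4 rose and 4 fell from GFP+ Pdgfrα- to GFP+ Pdgfrα+ cells (median -0.10). The E proteins, which pair with myogenic bHLH factors, were broad. *Tcf4* had means of 414 in GFP+ Pdgfrα-, 363 in GFP+ Pdgfrα+, 369 in GFP- Pdgfrα+ and 63.3 in GFP- Pdgfrα- cells, and *Tcf3* was highest in GFP- Pdgfrα- cells at 153.7. *Tead1*, a DNA-binding partner of vestigial-like proteins, was 480 in GFP+ Pdgfrα-, 207 in GFP+ Pdgfrα+, 222 in GFP- Pdgfrα+ and 18.0 in GFP- Pdgfrα- cells. *Vgll3*, a paralogue of *Vgll2*, was 77.6 in GFP+ Pdgfrα- and 11.3 in GFP+ Pdgfrα+ cells (log2 difference -2.68, adjusted p = 0.000306, limma). *Id1*, an inhibitor of bHLH dimers, was 30.8 in GFP+ Pdgfrα- and 4.61 in GFP+ Pdgfrα+ cells (log2 difference -2.62, adjusted p = 0.00104, limma). *Mef2c*, a MADS-box partner of the myogenic factors that also acts in bone, was instead highest in GFP+ Pdgfrα+ cells at 284, against 70.2 in GFP+ Pdgfrα- cells. *Myf6*, the remaining myogenic bHLH gene, lies 6725 bases from *Myf5* on the same strand and had 1.504 ± 0.238 in GFP+ Pdgfrα- cells. It was at the floor in the other populations, and its call over GFP- Pdgfrα- cells (adjusted p = 0.0121, limma) was lost with median centring, quantile normalization or without either GFP- Pdgfrα- library.

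Of the genes of satellite cell surface and signalling, 17 of 17 were higher in GFP+ Pdgfrα- over GFP- Pdgfrα- cells (median log2 difference 4.82). The count was 15 to 17 under the alternatives, and *Cxcr4* and *Lgr5* were each not called under some of them. From GFP+ Pdgfrα- to GFP+ Pdgfrα+ cells 12 fell and 2 rose (median -1.79). The 2 that rose were called 0 times without GFP+ Pdgfrα- replicate 1, and 1 was called without GFP+ Pdgfrα- replicate 2, GFP+ Pdgfrα+ replicate 1 or GFP+ Pdgfrα+ replicate 2. *Fgfr4*, a receptor of fibroblast growth factors in muscle precursors, had means of 319 in GFP+ Pdgfrα-, 10.7 in GFP+ Pdgfrα+, 0.857 in GFP- Pdgfrα+ and 1.90 in GFP- Pdgfrα- cells. Its log2 difference was 6.85 in GFP+ Pdgfrα- over GFP- Pdgfrα- cells (adjusted p = 3.20e-08, limma). *Calcr*, the calcitonin receptor of quiescent satellite cells, was 82.1 in GFP+ Pdgfrα- and 2.25 in GFP+ Pdgfrα+ cells (log2 difference -4.67, adjusted p = 1.36e-05, limma). *Itga7*, a laminin receptor of muscle, was 89.3 in GFP+ Pdgfrα- and 3.38 in GFP+ Pdgfrα+ cells (log2 difference -4.36, adjusted p = 5.15e-06, limma). These 3 had a GFP+ Pdgfrα+ level near that of the 8 regulators relative to GFP+ Pdgfrα- cells. *Heyl*, a Notch target, was 330 in GFP+ Pdgfrα- and 110 in GFP+ Pdgfrα+ cells, and the receptor gene *Notch3* was 478 and 121. *Chodl* and *Ncam1* were also high in GFP- Pdgfrα+ cells, at 219 and 204. Relative to GFP- Pdgfrα+ cells 6 were higher and 2 lower in GFP+ Pdgfrα+ cells, and the 6 became 3 and 2 without GFP- Pdgfrα+ replicates 1 and 2 and 2 without GFP+ Pdgfrα+ replicate 1, while the 2 became 1 without GFP- Pdgfrα+ replicate 1.

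Myoblast fusion and early differentiation was represented by 21 genes. As a group 20 were higher and 0 lower in GFP+ Pdgfrα- over GFP- Pdgfrα- cells (median log2 difference 3.70), and from GFP+ Pdgfrα- to GFP+ Pdgfrα+ cells 11 fell and 4 rose (median -1.001). The 4 became 2 without GFP+ Pdgfrα- replicate 1, GFP+ Pdgfrα- replicate 2 or GFP+ Pdgfrα+ replicate 1. *Tmem8c* (myomaker) and *Gm7325* (myomixer) encode the proteins that fuse myoblasts. *Tmem8c* was 67.7 ± 5.003 in GFP+ Pdgfrα- and 2.80 ± 1.32 in GFP+ Pdgfrα+ cells, and at the floor in the GFP- populations. Its log2 difference was 5.52 in GFP+ Pdgfrα- over GFP- Pdgfrα- cells (adjusted p = 6.60e-07, limma), with -4.22 for GFP+ Pdgfrα+ over GFP+ Pdgfrα- cells (adjusted p = 3.47e-05, limma). *Gm7325* was 20.1 ± 1.65 in GFP+ Pdgfrα- cells and at the floor in the other 3 populations. *Rbm24*, an RNA-binding splicing factor of muscle, was 90.4 in GFP+ Pdgfrα- and 3.67 in GFP+ Pdgfrα+ cells (log2 difference -4.29, adjusted p = 8.07e-06, limma). *Mstn* (myostatin, an inhibitor of muscle growth) was 43.1 in GFP+ Pdgfrα-, 1.84 in GFP+ Pdgfrα+ and 13.6 in GFP- Pdgfrα+ cells. The receptors *Cdon* and *Boc*, which promote myogenesis and also bind hedgehog proteins, were highest in GFP- Pdgfrα+ cells, at 645 and 303. Against GFP- Pdgfrα+ cells 1 was higher and 4 lower in GFP+ Pdgfrα+ cells, and the 1 was lost without either GFP- Pdgfrα+ library or GFP+ Pdgfrα+ replicate 1 and became 2 without either GFP- Pdgfrα- library, while the 4 became 1 without GFP- Pdgfrα+ replicate 1 and 2 without GFP+ Pdgfrα+ replicate 2.

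The acetylcholine receptor and muscle endplate list held the partners of *Chrna1*. Of 12 genes, 11 were higher and 1 lower in GFP+ Pdgfrα- over GFP- Pdgfrα- cells (median log2 difference 3.26), and 9 fell and 1 rose from GFP+ Pdgfrα- to GFP+ Pdgfrα+ cells (median -2.45). *Chrnb1*, the β subunit, was 165 ± 37.0 in GFP+ Pdgfrα- and 8.58 ± 0.952 in GFP+ Pdgfrα+ cells (log2 difference -4.10, adjusted p = 2.31e-05, limma). *Chrnd*, the δ subunit, was 42.5 ± 13.9 in GFP+ Pdgfrα- and 3.06 ± 2.90 in GFP+ Pdgfrα+ cells. *Chrng*, the γ subunit of the fetal receptor, was 9.38 ± 6.57 in GFP+ Pdgfrα- cells and at the floor elsewhere. All the measured subunits of the fetal receptor were thus highest in GFP+ Pdgfrα- cells, in both libraries. *Musk*, the receptor kinase that clusters acetylcholine receptors, was 71.8 in GFP+ Pdgfrα- and 0.720 in GFP- Pdgfrα- cells (log2 difference 5.49, adjusted p = 1.49e-07, limma). *Lrp4*, the agrin receptor, which is also expressed in bone cells, was the 1 that rose to GFP+ Pdgfrα+ cells, from 75.5 to 223. *Ache*, the esterase that ends the signal and is present on red blood cells too, was the 1 lower gene, with 65.5 in GFP- Pdgfrα- and 2.49 in GFP+ Pdgfrα- cells. The 2 genes higher in GFP+ Pdgfrα+ over GFP- Pdgfrα+ cells became 1 without either GFP- Pdgfrα+ library or GFP+ Pdgfrα+ replicate 1.

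Genes of the skeletal muscle fibre were the largest list, and 22 of the 29 in the table had both GFP+ Pdgfrα- libraries above the other 6, as did 11.0% of all genes. Of the 29, 23 were higher and 0 lower in GFP+ Pdgfrα- over GFP- Pdgfrα- cells (median log2 difference 2.61), and from GFP+ Pdgfrα- to GFP+ Pdgfrα+ cells 20 fell and 0 rose (median -2.11). *Actc1*, the actin of heart and immature skeletal muscle, was 951 ± 134 in GFP+ Pdgfrα- and 47.4 ± 13.6 in GFP+ Pdgfrα+ cells. Its log2 difference was 5.76 in GFP+ Pdgfrα- over GFP- Pdgfrα- cells (adjusted p = 3.59e-08, limma), with -4.32 for GFP+ Pdgfrα+ over GFP+ Pdgfrα- cells (adjusted p = 2.90e-06, limma). *Ttn* (titin) was 866 in GFP+ Pdgfrα-, 94.5 in GFP+ Pdgfrα+, 24.0 in GFP- Pdgfrα+ and 36.8 in GFP- Pdgfrα- cells. *Neb* (nebulin) was 494 in GFP+ Pdgfrα-, 34.0 in GFP+ Pdgfrα+, 10.6 in GFP- Pdgfrα+ and 20.8 in GFP- Pdgfrα- cells. *Myh3* and *Myh8*, the embryonic and perinatal myosin heavy chains, had means of 35.4 and 58.3 in GFP+ Pdgfrα- cells. Fibre genes therefore stood beside the precursor regulators in the same population. Between the GFP- populations, 7 of the 29 were higher and 4 lower in GFP- Pdgfrα+ cells, where 32.9% and 26.8% of all genes were. The 7 became 2 without GFP- Pdgfrα- replicate 2 or GFP- Pdgfrα+ replicate 1 and 4 without GFP- Pdgfrα+ replicate 2, and the 4 became 2 without GFP- Pdgfrα- replicate 1 or GFP- Pdgfrα+ replicate 1.

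The level of GFP+ Pdgfrα+ cells as a percent of that of GFP+ Pdgfrα- cells was taken for the genes of each list with their highest mean in GFP+ Pdgfrα- cells, a choice that keeps the percent below 100. Its median was 3.87% for the 8 regulators, with a range of 1.99% to 5.79%. The median was 12.9% for 14 of 21 fusion genes, 11.2% for 9 of 12 endplate genes, 12.6% for 10 of 15 premyogenic factors and 18.7% for 29 of 29 fibre genes. It was 25.4% for 13 of 17 satellite cell genes and 43.2% for 9 of 19 partners and inhibitors. Summed over whole lists, the percent in replicates 1 and 2 was 94.1% and 80.4% for fusion genes, 82.6% and 62.3% for endplate genes, and 52.7% and 68.9% for premyogenic factors. The whole-list sums gave 9.72% and 9.16% for fibre genes, 32.95% and 29.4% for satellite cell genes, and 96.2% and 90.6% for partners and inhibitors. Markers of cell types outside muscle that were highest in GFP+ Pdgfrα- cells had medians of 16.8% (8 of 10, Schwann cell lineage) and 18.9% (8 of 10, pericyte and smooth muscle). *Notch3* is on both the satellite cell list and the pericyte list. The regulators were selected by their values, so the medians are a description and not a test.

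**Figure D3:**
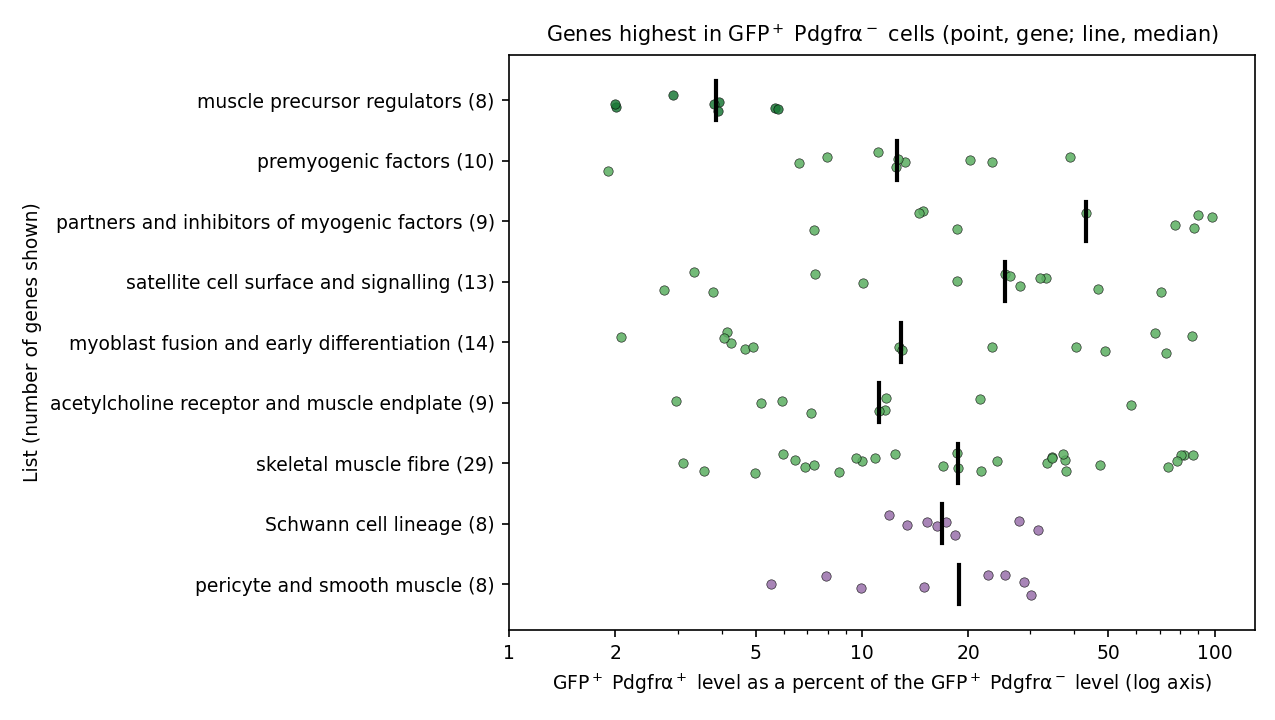
Level in GFP+ Pdgfrα+ cells as a percent of that in GFP+ Pdgfrα- cells on a log axis, with points for genes that were highest in GFP+ Pdgfrα- cells and a line for the median of each list. The 8 regulators lie between 1.99% and 5.79%, and satellite cell genes between 2.74% and 70.5%.

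The GFP+ Pdgfrα- population also held markers of other cells, and the part of these cells in the results was not tested. All 10 Schwann cell lineage markers were in the table, with sums of 510.4 and 460.0 in GFP+ Pdgfrα-, 210.2 and 186.9 in GFP+ Pdgfrα+, 79.4 and 90.6 in GFP- Pdgfrα+, and 29.6 and 44.6 in GFP- Pdgfrα- libraries. Of these, 8 had their highest mean in GFP+ Pdgfrα- cells, while *Ngfr*, the most abundant, had it in GFP+ Pdgfrα+ cells, and *Sox10*, *Foxd3*, *Cdh19* and *Fabp7* were at the floor in GFP- Pdgfrα+ cells. *Foxd3* and *Cdh19* were also at the floor in GFP- Pdgfrα- cells. The 10 pericyte and smooth muscle markers summed to 2379 and 3104 in GFP+ Pdgfrα-, 741.6 and 651.4 in GFP+ Pdgfrα+, 532.5 and 545.0 in GFP- Pdgfrα+, and 85.6 and 148.3 in GFP- Pdgfrα- libraries. Among them 8 were highest in GFP+ Pdgfrα- cells, *Rgs5* was the most abundant, and *Cnn1* alone reached the floor, in GFP- Pdgfrα- cells. The muscle regulators thus shared their highest population with most markers of both lists.

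Markers of heart, vessels, blood, bone and tendon had a mixed pattern. Of 6 heart muscle markers 3 were in the table, with sums of 46.0 and 5.02 in GFP+ Pdgfrα-, 25.8 and 18.5 in GFP+ Pdgfrα+, 54.1 and 51.2 in GFP- Pdgfrα+, and 4.17 and 1.06 in GFP- Pdgfrα- libraries. *Tbx5*, which is also a limb gene, was the most abundant, with its highest mean in GFP- Pdgfrα+ cells. *Myh6* and *Myl7*, the other 2, had their highest mean in GFP+ Pdgfrα- cells through replicate 1, with 34.1 and 3.47 for *Myh6* and 9.83 and 0.129 for *Myl7*, and reached the floor in GFP- Pdgfrα+ cells. Of the 3, *Myh6* and *Tbx5* were called higher in GFP+ Pdgfrα- over GFP- Pdgfrα- cells, as were 30.1% of all genes. The 6 endothelial markers, led by *Tek*, summed to 45.9 and 93.4 in GFP+ Pdgfrα-, 48.6 and 72.7 in GFP+ Pdgfrα+, 49.4 and 51.4 in GFP- Pdgfrα+, and 31.6 and 121.4 in GFP- Pdgfrα- libraries. The 8 blood cell markers, led by *Hbb-b1*, summed to 85.2 and 53.0 in GFP+ Pdgfrα-, 27.3 and 34.2 in GFP+ Pdgfrα+, 33.5 and 35.6 in GFP- Pdgfrα+, and 6434 and 11720 in GFP- Pdgfrα- libraries. The population that was highest for blood genes was thus low for all 8 regulators. The 6 osteoblast markers, led by *Col1a1*, summed to 3347 and 2780 in GFP+ Pdgfrα-, 54430 and 40600 in GFP+ Pdgfrα+, 16960 and 15440 in GFP- Pdgfrα+, and 457.0 and 586.7 in GFP- Pdgfrα- libraries. The 7 fibroblast and tendon markers, led by *Pdgfra*, which the sort itself used, summed to 141.9 and 122.1 in GFP+ Pdgfrα-, 1131 and 1132 in GFP+ Pdgfrα+, 1956 and 1674 in GFP- Pdgfrα+, and 29.7 and 30.1 in GFP- Pdgfrα- libraries.

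The genes most like the 8 were ranked by the Pearson correlation of log2(value + 1) with the mean of their standardized profiles, over 8 libraries that form 4 pairs. Of 10996 genes with a mean value of at least 5, *Col19a1* was most alike (0.994), followed by *Tmem8c* (0.994), *Traf3ip3* (0.994), *Mcam* (0.992) and *Rbm24* (0.992). Next were *Ryr1* (0.992), *Sox8* (0.992), *Itga7* (0.991), *Fgfr4* (0.9899) and *Tmem229a* (0.989). By Spearman correlation the order differed, with *Traf3ip3*, *Itga7* and *Fgfr4* at rank 3 and *Col19a1* at rank 63, and all 10 were within the first 100. Of these 10 genes, 5 were on the muscle lists, which held 113 of all 15880 genes and were chosen with earlier results known. Most of the 10 passed the filter on the mean only through GFP+ Pdgfrα- cells. *Col19a1*, *Tmem8c*, *Traf3ip3*, *Rbm24*, *Itga7* and *Tmem229a* had means below 5 in every other population. Among the other populations, *Ryr1* and *Fgfr4* had means above 5 only in GFP+ Pdgfrα+ cells, at 6.24 and 10.7. *Col19a1*, which encodes a collagen chain, had means of 30.6 ± 0.545 in GFP+ Pdgfrα- and 1.40 ± 0.558 in GFP+ Pdgfrα+ cells. *Traf3ip3* was 29.5 ± 1.38 in GFP+ Pdgfrα- and 1.14 ± 0.630 in GFP+ Pdgfrα+ cells. *Sox8*, an SRY-related factor, was 152.2 ± 14.3 in GFP+ Pdgfrα- and 12.1 ± 1.05 in GFP+ Pdgfrα+ cells. *Mcam*, an adhesion protein also known as CD146, was 211.3 in GFP+ Pdgfrα- cells and kept 13.1 and 12.8 in GFP- Pdgfrα+ and GFP- Pdgfrα- cells, above the floor. Among the 8 themselves, the correlation with their mean profile was highest for *Myod1* (0.997) and lowest for *Msc* (0.957).

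The promoters of the 8 genes, which were selected for a shared pattern, were read for CANNTG, the E-box letters known to be bound by bHLH factors. Windows of the 250 bases before the start came from RefSeq (GRCm38.p6), in which 6 of the 8 genes were matched, while *Myod1* and *Msc* are named only. CANNTG reads the same on both strands, so each match covers both. It was found in 4 of 6 windows: 3 times in *Cdh15* and *Chrna1*, 2 times in *Myog*, 1 time in *Vgll2*, and 0 times in *Pax7* and *Myf5*. Of 32851 windows of the same length, 66.2% held CANNTG, 31.8% held at least 2 matches and 12.2% at least 3. The *Chrna1* window held CAGCTG 2 times and CAGGTG 1 time. CAGCTG was in 13.0% of all windows, and CAGGTG or its complement CACCTG in 17.2%. The windows of the 3 genes with at least 2 matches are printed 5′ to 3′ on the strand of the gene, with CANNTG in capitals. They are chr1:134289754-134290003 (plus strand) for *Myog*, chr8:122848124-122848373 (plus strand) for *Cdh15*, and chr2:73580339-73580588 (minus strand) for *Chrna1*.
Myog: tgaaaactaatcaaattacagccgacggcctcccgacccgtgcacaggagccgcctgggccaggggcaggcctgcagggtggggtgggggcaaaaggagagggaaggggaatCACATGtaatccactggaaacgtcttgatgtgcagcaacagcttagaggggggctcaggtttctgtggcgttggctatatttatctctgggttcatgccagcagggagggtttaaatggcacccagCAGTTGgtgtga
Cdh15: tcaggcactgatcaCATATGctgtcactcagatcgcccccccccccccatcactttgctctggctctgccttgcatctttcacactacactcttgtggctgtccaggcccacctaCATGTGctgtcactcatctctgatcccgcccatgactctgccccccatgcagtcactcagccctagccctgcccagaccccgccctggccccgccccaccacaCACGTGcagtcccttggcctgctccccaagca
Chrna1: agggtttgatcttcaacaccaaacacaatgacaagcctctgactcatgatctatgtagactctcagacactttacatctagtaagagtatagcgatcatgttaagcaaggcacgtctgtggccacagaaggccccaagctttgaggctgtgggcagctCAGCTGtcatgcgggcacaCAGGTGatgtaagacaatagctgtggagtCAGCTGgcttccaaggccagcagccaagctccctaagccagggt
The matches describe letters in these windows and are not binding sites measured here.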

How the data were processed

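The deposited values of the 8 libraries were taken as a signal normalized by the authors, who trimmed reads with cutadapt, quantified them with RSEM 1.17 on the NCBIM37 transcriptome (Ensembl gene-build 65), filtered genes and normalized with voom of limma. Whole reads were recovered from 100% of the values within a tolerance of 0.05. Of 15880 gene ids, 15849 were matched to GENCODE M1, of the same build, and 74 symbols had several ids.

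Log2(value + 1) was fitted in limma 3.58.1 with a trend, 4 group coefficients and 4 residual degrees of freedom, and p-values were adjusted over all genes by the Benjamini-Hochberg method. Alternatives were edgeR 4.0.16, DESeq2 1.42.0 and voom on recovered reads, a pseudocount of 0.1, median centring, quantile normalization, a filter on low values, the compared groups alone, a replicate block, and leaving out each library. R 4.3.3, Python 3.11.15, numpy 2.4.6, pandas 2.3.3 and matplotlib 3.10.9 were used, and the fit was tried on simulated data first.

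The 8 genes and the lists were chosen with earlier results of these data known. Named genes are the 8, of each list the 6 with the highest mean and any whose 2 libraries of 1 group lay above the other 6, the most abundant gene of each marker list, the 10 most like the 8, and *Pdgfra* and *Nes*. The methods state that each set came from pooled littermates, so the replicate number may mark a shared pool. *Xist* was 119- to 299-fold higher in replicate 2 in each population, while correlations of deviations between populations were 0.00433 to 0.0812.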

Additional observations from a re-analysis of the deposited data

Results flagged for a closer look

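The difference of Pdgfrα+ over Pdgfrα- cells in *Msc* had opposite signs with and without GFP. It was -5.06 on the log2(value + 1) scale in GFP+ cells and 1.01 in GFP- cells. In GFP- cells it rested on 10 and 6 reads in Pdgfrα+ libraries against 0 and 5 in Pdgfrα- libraries, values of 2.65 and 1.93 against 0.144 and 1.30. The other 7 genes had no mean value in GFP- Pdgfrα+ cells above that in GFP- Pdgfrα- cells. On the log2(value + 1) scale *Cdh15* also had opposite signs, -3.84 in GFP+ and 0.04 in GFP- cells, where its libraries overlapped at the floor. The difference between the 2 effects was not tested, since *Msc* was chosen by its values.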

How the results depend on the processing

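Genes called numbered 8527 in GFP+ Pdgfrα- over GFP- Pdgfrα-, 3848 in GFP+ Pdgfrα+ over GFP+ Pdgfrα-, 849 in GFP+ Pdgfrα+ over GFP- Pdgfrα+ and 9476 in GFP- Pdgfrα+ over GFP- Pdgfrα- cells. In the same order edgeR called 8415, 3586, 893 and 9281, DESeq2 7268, 2874, 802 and 8234, and voom 8651, 3882, 1057 and 9495. With a replicate block the counts were 8581, 3925, 924 and 9541, and of the 272 calls of listed genes 2 were lost and 1 was gained. Leaving out 1 library gave 2158 to 4056 genes in GFP+ Pdgfrα+ over GFP+ Pdgfrα- and 246 to 1083 in GFP+ Pdgfrα+ over GFP- Pdgfrα+ cells. Higher genes made up 56.1% of the calls in GFP+ Pdgfrα- over GFP- Pdgfrα- cells and 38.9% with median centring, and 55.2% and 40.6% in GFP- Pdgfrα+ over GFP- Pdgfrα- cells. The median of all genes moved from 0.15 to -0.14 with quantile normalization and -0.30 with median centring in GFP+ Pdgfrα- over GFP- Pdgfrα- cells, and from 0.17 to -0.15 and -0.28 in GFP- Pdgfrα+ over GFP- Pdgfrα- cells. The median log2 difference of the 8 genes with a pseudocount of 0.1 was 6.82, -4.66, 2.35 and -0.66 in the 4 comparisons, against 5.56, -4.49, 1.48 and -0.36. With quantile normalization it was 5.18, -4.76, 1.39 and -0.98, and with median centring it was 5.10 in GFP+ Pdgfrα- over GFP- Pdgfrα- and -0.81 in GFP- Pdgfrα+ over GFP- Pdgfrα- cells. In GFP+ Pdgfrα+ over GFP- Pdgfrα+ cells it was 1.44 to 1.58 when 1 library was left out. *Cdh15* had a log2 difference of 0.04 in GFP- Pdgfrα+ over GFP- Pdgfrα- cells that became -0.48 with quantile normalization, so no direction is given for it. The 2 pools of a population limit all estimates of spread, amplified cDNA adds variation that the counting intervals leave out, and the cell number of the pools was not modelled.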

Other observations

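The 2 GFP+ Pdgfrα- pools are compared by the share of genes higher in replicate 1, which was 47.0% of all genes above the floor. *Myog* and *Chrna1* were higher in replicate 1, at 140.9 against 95.3 and 66.4 against 54.2, while the other 6 regulators were higher in replicate 2. By value *Myf5* differed least, at 131.0 and 131.1. The muscle lists went both ways, with 9 of 15 premyogenic factors, 6 of 18 partners and inhibitors, 7 of 17 satellite cell genes, 11 of 21 fusion genes, 5 of 12 endplate genes and 17 of 29 fibre genes higher in replicate 1. Heart genes *Myh6* and *Myl7*, chosen after their values were seen, were 34.1 and 3.47, and 9.83 and 0.129. Of the markers of other cells, 0 of 10 for pericytes and smooth muscle, 0 of 6 for endothelium, 8 of 10 for Schwann cells, 3 of 3 for heart muscle, 6 of 8 for blood, 5 of 6 for osteoblasts and 3 of 6 for fibroblasts and tendon were higher in replicate 1. Each replicate is 1 pool, so these differences carry no test.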
